A study of Mus musculus with 8 samples.

Results

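The 9 genes described here are outputs of the circadian clock: Usp2, Wee1, Nampt, Lpin1, Klf9, Klf10, Klf15, Por and Alas1. They were chosen by name as known clock-controlled genes that carry daily time into cell division, metabolism and hormone responses. The rule used names and no measured value, though earlier results of these data were known when the names were chosen. Each name matched 1 row, so that the genes make up 9 of the 32285 annotated genes, and all 9 are protein coding and had enough counts to be tested in the whole kidney.

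In mammalian cells the activators BMAL1 (encoded by Arntl) and CLOCK or NPAS2 bind E-box sequences and drive their own repressors of the PER, CRY and REV-ERB families, which closes a loop of about a day. The same activators and repressors, together with D-box factors, nuclear receptors and daily glucocorticoid signals, drive output genes that are not themselves parts of the loop. Klf9, Klf10 and Klf15 encode zinc-finger transcription factors, of which Klf9 and Klf15 also respond to glucocorticoids. Nampt encodes the rate-limiting enzyme of NAD salvage, Alas1 the first enzyme of haem synthesis, and Por the reductase that passes electrons from NADPH to microsomal cytochromes P450. Lpin1 encodes a phosphatidate phosphatase that makes diacylglycerol, Wee1 a kinase that holds back entry into mitosis, and Usp2 a deubiquitinating enzyme.

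RNA was measured in single nuclei of kidneys from male mice aged 14 weeks on a C57BL/6J background, with a droplet assay that counts unique molecular identifiers (UMIs) at the 3′ end of transcripts. Ctrl mice carried the floxed allele Bmal1lox/lox without transgenes, and cKOt mice were Bmal1lox/lox/Pax8-rtTA/LC-1, in which the Pax8 promoter drives the doxycycline-dependent activator and LC-1 supplies Cre, so that Bmal1 is deleted along the renal tubule while vessels, interstitium and blood-derived cells keep it. Both genotypes drank 2 mg/ml doxycycline for 2 weeks from the age of 8 weeks, and were kept in 12 h light and 12 h dark. Kidneys were taken at zeitgeber time (ZT) 4, in the light phase, and at ZT16, in the dark phase, with 2 mice per genotype and time and 1 library per mouse. Light cycles were shifted between boxes so that every mouse was killed at the same clock hour.

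The 8 libraries kept 8758 to 10975 nuclei each, with a median of 3003.5 to 4830 UMIs per nucleus and 30119827 to 45245488 UMIs in protein-coding genes per library. Levels are given as CPM, a gene's counts relative to all protein-coding UMIs of the library or class with TMM scaling, and a change is called where its adjusted p from edgeR's quasi-likelihood test is under 0.05. Nuclei were clustered without the 9 genes and named from marker genes into 20 classes with at least 10 nuclei in every library. The proximal tubule is split into convoluted (PCT), straight (PST) and a class of further proximal clusters (PCT/PST). The PCT/PST clusters scored best for PST markers, except cluster 13, which scored best for PCT. The remaining tubular classes are the thin limbs (thinDL, thinAL), thick ascending limb (TAL), macula densa (MD), distal convoluted tubule (DCT1, DCT2), connecting tubule (CNT), collecting duct (CCD, MCD) and intercalated cells (aIC, bIC). Vascular cells (Vasc), mesangial cells and pericytes (Mes/Per), smooth muscle and juxtaglomerular cells (SMC/JGC), podocytes (Podo), myeloid cells (Myel) and urothelium (UT) complete the 20. The proximal markers were not confined to proximal nuclei: the summed level of the 6 PCT markers, all found, was 6391 to 9767 CPM in PCT, while the 17 classes outside the proximal tubule still held 152.8 to 910.5 CPM of it. Within that range DCT1 and TAL had 229.0 to 348.0 CPM, Mes/Per 297.2 to 487.9 CPM, Myel 410.0 to 690.2 CPM and SMC/JGC 446.6 to 910.5 CPM. In Ctrl the Arntl level was 38.35 and 33.08 CPM in the 2 libraries of ZT4 and 153.7 and 159.2 CPM in those of ZT16, against 201.2 to 296.0 CPM in the 4 cKOt libraries. Since 3′ counts need not come from the deleted exons, they do not check the deletion.

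The letters of the promoters are shown because the clock acts on such outputs through short motifs near the start site. RefSeq promoters of GRCm38.p6, from 250 bases before to 50 bases after the start, were found for 7 of the 9 genes, 8 promoters in all, with no entry used for Wee1 and Klf10. The E-box CACGTG was searched on both strands and lay in 1 of the 8, the promoter of Klf15, against 2349 of 32851 promoters overall (7.15%). Klf15 held it at 3 places, and only 29 of the 32851 promoters (0.0883%) held it at 3 or more. The sites are shown 5′ to 3′ on the plus strand with the motif in capitals. They lie at chr6:90462336-90462365, chr6:90462392-90462421 and chr6:90462561-90462590, the last of them across the start site used for this promoter.
Klf15 E-box A: ctcccgaggtccCACGTGgtctgcacttcg
Klf15 E-box B: tagaacccgtctCACGTGcgcatcggagga
Klf15 E-box C: cgcccgcggcgtCACGTGagcggccggaga

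The nuclear receptor core motif AGGTCA, on which the REV-ERB and ROR factors act, was in 2 of the 8 promoters, those of Lpin1 (chr12:16611023-16611052, minus strand) and Nampt (chr12:32820172-32820201, plus strand), against 16.3% of all promoters. The E-box variant CACGTT (4.69% of all promoters) and the D-box TTANGTAA (2.32%) were in none of the 8. A match is a description of the letters in this window and says nothing about a factor's binding. The windows of Klf15 and Lpin1 lie within the gene spans given below and not at their outer ends.
Lpin1 receptor motif: ggaagtagcttgAGGTCActtcctgtagtc
Nampt receptor motif: aggcaggcgcccAGGTCAcgcgctggggtg

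In Ctrl kidneys the 9 genes differed in the classes that held them. Por, Lpin1, Klf15, Alas1 and Klf9 were mostly in proximal nuclei: at ZT4 in Ctrl the 3 proximal classes held 77.4% of all UMIs of Por, 75.4% of Lpin1, 69.9% of Alas1, 68.5% of Klf15 and 63.7% of Klf9. The same classes held 55.4% of Usp2. Nampt and Wee1 were spread further along the nephron, with 39.4% and 43.7% of their UMIs in proximal nuclei, and Klf10 had 39.5% there and 27.1% in Vasc. For Klf10 the 2 mice differed, with 26.7% and 10.02% in the PCT/PST class and 16.6% and 41.6% in Vasc. These shares depend on how many nuclei of each class were captured, whereas the levels per class, given next as the mean ± SD over the 4 Ctrl libraries at both times, do not. Neighbours in the order of levels are said to stand apart only where their ranges over the 4 libraries did not touch, which was so for 8 of the 9 × 19 neighbouring pairs.

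Among the enzymes, Por was at 417.0 ± 81.4 CPM in MD, 411.3 ± 117 CPM in PST, 354.1 ± 86.9 CPM in PCT/PST and 233.6 ± 82.8 CPM in PCT, and these levels overlapped. UT followed at 154.1 ± 19.6 CPM and stood apart from Mes/Per at 115.6 ± 18.4 CPM, and the lowest level was 46.9 ± 8.28 CPM in CCD. Lpin1 was highest in PCT/PST at 188.3 ± 45.7 CPM, apart from PST at 123.7 ± 14.1 CPM. PCT at 111.9 ± 29.4 CPM was in turn apart from Mes/Per at 67.1 ± 6.25 CPM. The means of the 3 proximal classes lay above those of the other 17, while the range of MD, which has few nuclei, reached 96.0 CPM and touched that of PCT.

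Nampt had another order. It was highest in the thin descending limb at 619.7 ± 89.2 CPM, with every Ctrl library above every value in DCT1 at 273.9 ± 50.1 CPM. DCT2 at 223.1 ± 67.6 CPM and CNT at 211.5 ± 13.2 CPM came next, and CNT stood apart from CCD at 168.4 ± 22.3 CPM. PCT had 82.4 ± 9.20 CPM and the thin ascending limb 42.4 ± 9.01 CPM, the lowest of the 20. Alas1 was at 131.3 ± 69.9 CPM in PCT, 128.3 ± 69.5 CPM in PCT/PST and 104.4 ± 79.6 CPM in PST, against 18.3 ± 11.5 CPM in Podo, and no neighbours in its order stood apart.

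The 3 transcription factors differed in where they were highest. Klf9 had its highest level in PCT at 335.9 ± 95.5 CPM and was broadly present, with 221.3 ± 76.8 CPM in Mes/Per and 220.3 ± 31.7 CPM in Vasc. Klf15 was at 52.4 ± 12.0 CPM in PST, 51.3 ± 5.42 CPM in PCT/PST and 36.6 ± 7.39 CPM in PCT, and was lowest in Myel at 3.06 ± 0.453 CPM. Klf10 reached 56.4 ± 14.7 CPM in Vasc and 38.8 ± 27.6 CPM in UT, and was at 6.84 ± 2.67 CPM in TAL.

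Usp2 had its highest levels in distal classes, at 262.7 ± 91.8 CPM in MD, 197.1 ± 28.8 CPM in DCT2, 167.4 ± 53.9 CPM in DCT1 and 122.3 ± 29.5 CPM in TAL, and at 23.0 ± 5.72 CPM in Mes/Per. PCT/PST at 117.1 ± 18.0 CPM overlapped TAL, and CCD was at 67.6 ± 10.1 CPM. Wee1 was at 81.6 ± 10.2 CPM in MD and 37.9 ± 9.83 CPM in DCT1. The MD levels rest on 10 to 33 nuclei per library, and for Wee1 on 2 to 7 UMIs, so that the counting error is large there. Counts of 1 gene are compared between classes here and not with those of another gene, since 3′ counts also depend on the transcript.

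**Figure D1:**
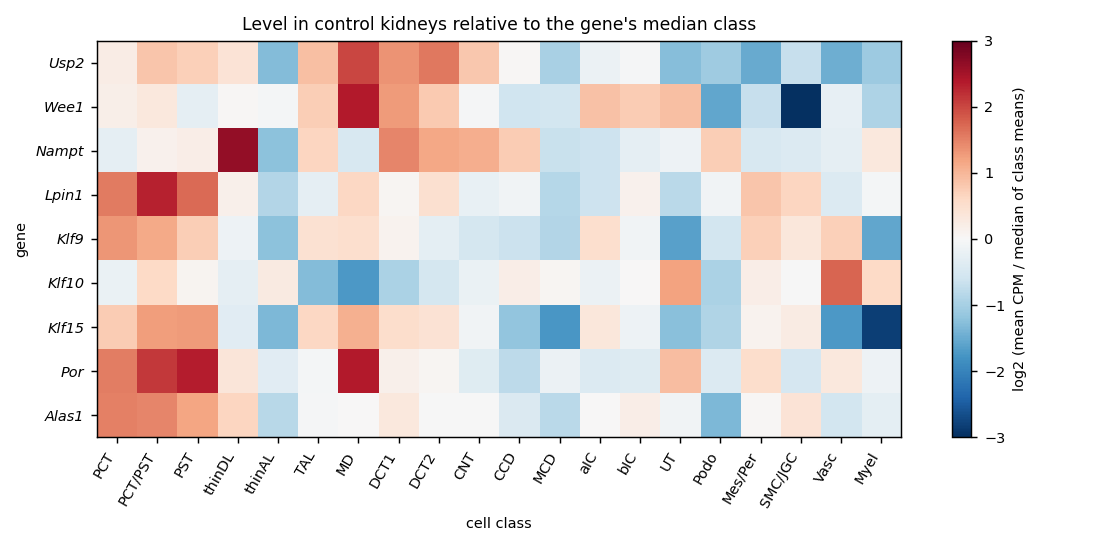
Heat map of the 9 genes (rows) in the 20 classes (columns) of Ctrl kidneys, coloured by log2 of the mean CPM over 4 libraries relative to the gene's median class. Por, Lpin1, Klf15, Alas1 and Klf9 are high in the proximal classes, Nampt in thinDL and the distal tubule, Usp2 in MD, DCT2 and DCT1, and Klf10 in Vasc.

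In sums over the whole kidney none of the 9 genes was called in any of the 5 contrasts: ZT16 against ZT4 in Ctrl, cKOt against Ctrl at ZT4, the same at ZT16, ZT16 against ZT4 in cKOt, and the genotype by time interaction. Of all genes tested, 0.142%, 0.446%, 0.174%, 0% and 0.0183% were called in these contrasts. More of the 9 genes had lower than higher fitted levels in cKOt. At ZT16, 9 of 9 had a lower fitted level in cKOt, with a median change of −0.45 on the log2 scale against 0.003 for all genes, and in 5 of them both cKOt libraries lay below both Ctrl libraries, as 17.7% of all genes did in that direction. At ZT4, 8 of 9 were lower with a median of −0.22 (0.003 for all genes), and 3 had both libraries below (19.3% of all genes). An unadjusted p under 0.05 was reached by 2 genes at ZT4 (8.87% of all genes) and by 3 at ZT16 (6.10%). DESeq2 called 1 gene at ZT4, Por, beside 349 of all 16145 genes tested. At ZT16 it called 3, Nampt, Wee1 and Lpin1, beside 171 of 16094. The contrasts share libraries with one another: the Ctrl libraries at a given time serve both the genotype contrast at that time and the contrast of times. In whole-kidney sums, fewer nuclei of a class that holds the RNA and less RNA per nucleus cannot be told apart.

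Por, the P450 reductase, was the member with the largest fitted difference at ZT4. It was at 244.7 and 206.0 CPM in Ctrl and at 147.1 and 121.7 CPM in cKOt, with no overlap. The fitted change was −0.75 ± 0.19 (log2 ± SE, n = 2 mice per group, adjusted p = 0.187 with edgeR, 0.0155 with DESeq2). With the replicate number as a block, edgeR gave an adjusted p = 0.0427. At ZT16 it was at 184.2 and 134.7 CPM in Ctrl and 139.6 and 110.2 CPM in cKOt, which overlapped (−0.35 ± 0.19, −0.56 to −0.11 without single libraries, adjusted p = 0.912). In Ctrl both ZT16 libraries were below both ZT4 libraries (−0.50 ± 0.19, −0.73 to −0.29 without single libraries, adjusted p = 0.434).

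Wee1, the mitotic brake, was instead farthest apart at ZT16. In Ctrl it was at 14.89 and 12.19 CPM (ZT4) against 19.84 and 23.25 CPM (ZT16), higher in both dark-phase libraries (0.67 ± 0.18, adjusted p = 0.255). In cKOt it was at 12.67 and 10.49 CPM (ZT4) against 13.48 and 11.12 CPM (ZT16), so the time points overlapped. The difference between genotypes at ZT16 was −0.81 ± 0.18 (adjusted p = 0.196 with edgeR, 0.0146 with DESeq2). These levels come from 421 to 937 UMIs per library.

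Nampt, the NAD salvage enzyme, was lower in both cKOt libraries at both times. It was at 105.7 and 103.6 CPM in Ctrl against 85.67 and 81.65 CPM in cKOt at ZT4 (−0.32 ± 0.12, adjusted p = 0.391), and at 108.6 and 125.9 CPM against 75.85 and 79.63 CPM at ZT16 (−0.59 ± 0.12, adjusted p = 0.130 with edgeR, 0.0117 with DESeq2). Lpin1, the phosphatidate phosphatase, had separate genotypes at ZT16 and overlapping ones at ZT4. It was at 80.72 and 78.40 CPM in Ctrl and 87.37 and 79.60 CPM in cKOt at ZT4 (0.07 ± 0.14), and at 81.53 and 104.2 CPM against 64.41 and 57.62 CPM at ZT16 (−0.61 ± 0.14, adjusted p = 0.242 with edgeR, 0.0428 with DESeq2).

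Klf15 was at 31.86 and 30.51 CPM in Ctrl and 28.14 and 18.81 CPM in cKOt at ZT4, with both cKOt libraries lower (−0.41 ± 0.23, −0.73 to −0.15 without single libraries, adjusted p = 0.711). At ZT16 it was at 35.32 and 27.30 CPM in Ctrl and 27.15 and 19.15 CPM in cKOt, again without overlap but by a narrow margin (−0.44 ± 0.23, −0.71 to −0.21 without single libraries, adjusted p = 0.907). Klf10 was at 28.91, 15.36, 20.90 and 15.97 CPM in the Ctrl libraries and at 13.28, 20.22, 14.63 and 12.63 CPM in the cKOt libraries, ZT4 before ZT16. Both cKOt libraries were lower at ZT16 (−0.44 ± 0.31, −0.61 to −0.23 without single libraries, adjusted p = 0.999). Usp2 was at 87.34 and 68.11 CPM against 88.53 and 61.76 CPM at ZT4, and at 98.41 and 78.01 CPM against 79.37 and 49.38 CPM at ZT16, and the genotypes overlapped at both times. None of the differences of these 3 genes reached an unadjusted p under 0.05.

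Alas1 and Klf9 varied widely between mice of some groups. Alas1 was at 90.49 and 53.16 CPM (Ctrl ZT4), 50.40 and 115.8 CPM (Ctrl ZT16), 109.6 and 25.93 CPM (cKOt ZT4), and 67.55 and 46.18 CPM (cKOt ZT16). The 2 cKOt ZT4 mice thus differed by 4.23 times, and replicate 1 was the higher in 17 of 20 classes. The 2 Ctrl ZT16 mice differed by 2.30 times, with replicate 2 higher in 14 of 20 classes. Klf9, at 264.1, 199.7, 156.7, 246.9, 284.7, 175.2, 194.7 and 175.5 CPM in the same order, was highest in the same 3 libraries as Alas1: replicate 1 of cKOt ZT4, replicate 1 of Ctrl ZT4 and replicate 2 of Ctrl ZT16. The standard error of Alas1 was 0.61 on the log2 scale in each whole-kidney contrast between 2 groups. The difference at ZT16, −0.55, was smaller than this error (adjusted p = 0.999).

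**Figure D2:**
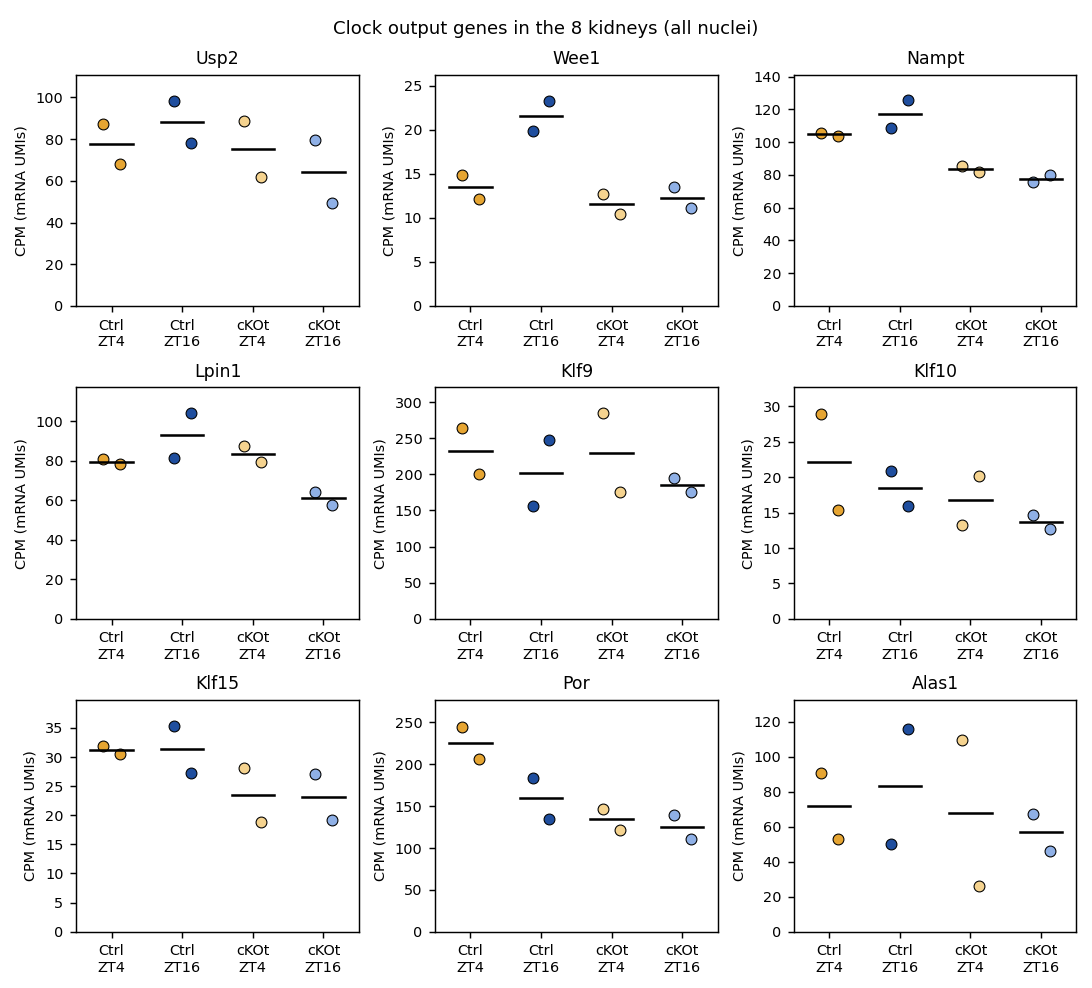
CPM of each of the 9 genes in the 8 whole-kidney libraries, 1 panel per gene with its own axis from 0, points for libraries and lines for the mean of 2 mice in each genotype and time. Por is lower in both cKOt libraries at ZT4, Wee1, Nampt and Lpin1 are lower in both at ZT16, and the 2 points of Alas1 lie far apart in cKOt ZT4.

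Within classes the calls were few and all in tubular nuclei, and all were lower in cKOt. At ZT4, 2 of 159 pairs of gene and class were called, both of Por, in PCT and in PCT/PST (0.315% of all pairs of gene and class). At ZT16, 5 of 162 pairs were called: Nampt in DCT1, DCT2 and CNT, Wee1 in PCT/PST and Lpin1 in PST (0.194% of all pairs). An unadjusted p under 0.05 was reached by 14 pairs at ZT4 (6.41% of all pairs) and by 36 at ZT16 (5.70%), and every one of these was lower in cKOt. The median over the pairs was −0.12 at ZT4 and −0.35 at ZT16, against 0.001 and −0.001 over all pairs. The pairs of 1 gene in several classes come from the same mice and are not independent of each other.

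In PCT, Por was at 313.8 and 286.5 CPM in Ctrl at ZT4 and fell to 143.1 and 121.2 CPM in cKOt, 0.440 times the Ctrl level (−1.19 ± 0.22, adjusted p = 0.0387). In PCT/PST it was at 421.6 and 417.1 CPM in Ctrl and at 195.0 and 201.4 CPM in cKOt (−1.08 ± 0.19, adjusted p = 0.0456). PST was alike in size, from 580.5 and 366.8 CPM to 299.8 and 179.8 CPM, but was not called (−0.98 ± 0.29, adjusted p = 0.387). In all 3 proximal classes the Ctrl libraries lay above the cKOt libraries. Each of the 2 calls was lost when any ZT4 library or either cKOt ZT16 library was left out, with adjusted p = 0.0621 to 0.246 in PCT and 0.101 to 0.182 in PCT/PST, while the change in PCT ranged from −1.07 to −1.32 over the libraries left out. Adjusted over all classes together, neither was called (0.0838 and 0.0853). Outside the proximal tubule Por was lower in both cKOt libraries of DCT2 (82.21 and 111.9 CPM against 57.75 and 55.42 CPM, −0.77 ± 0.25, adjusted p = 0.512) and of other classes. Among these were Podo (67.79 and 73.84 CPM against 26.65 and 48.41 CPM) and Myel (72.54 and 80.87 CPM against 39.13 and 59 CPM), which are not tubular. Over all 20 classes both cKOt libraries lay below both Ctrl libraries in 10 and above them in 0. The share of all pairs of gene and class that lay below in this way was not computed (19.3% of all genes did in the whole kidney). The classes come from the same mice, so this count cannot be weighed as independent results. The fitted level was lower in 15 classes, of which 5 reached an unadjusted p under 0.05, and higher in 5.

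The make-up of the proximal classes differed between groups. Cluster 5 held 83.4% of PCT nuclei of Ctrl at ZT4, and clusters 4 and 11 held 37.9% and 32.6% of those of cKOt at ZT4. In PCT/PST cluster 15 held 83.9% of nuclei of Ctrl at ZT4, and clusters 30, 7 and 13 held 37.4%, 31.3% and 29.6% of those of cKOt. The summed PCT markers in PCT/PST were 880.0 to 1251 CPM in the Ctrl libraries and 1177 to 1712 CPM in the cKOt libraries. In PST they were 460.1 to 1027 CPM over the 8 libraries. Cluster 13 scored best for PCT and second for PST, with 1 marker past 2-fold. Without it, Por in PCT/PST had a change of −1.02 with adjusted p = 0.0634. With the 3 proximal classes summed, which leaves this split aside, Por was lower by −1.07 ± 0.19 (adjusted p = 0.0471, 0.734% of all genes called), a call that was lost without the same 6 libraries as in PCT.

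Nampt was called in 3 neighbouring segments of the distal nephron at ZT16. In DCT1 it was at 286.9 and 338.9 CPM in Ctrl and at 136.1 and 152.5 CPM in cKOt (−1.11 ± 0.17, adjusted p = 0.00312). In DCT2 it was at 224.8 and 318.1 CPM in Ctrl and at 124.6 and 140.1 CPM in cKOt (−1.03 ± 0.19, adjusted p = 0.0149), and in CNT at 209.2 and 230.7 CPM against 96.10 and 138.5 CPM (−0.90 ± 0.20, adjusted p = 0.0288). Each of these 3 classes was a single cluster. Leaving out replicate 2 of Ctrl ZT16 or either cKOt ZT16 library ended the call in DCT1 (adjusted p = 0.0700, 0.162 and 0.0796) and in DCT2 (0.358, 0.328 and 0.119). In CNT it was lost without either Ctrl ZT4 library (0.0795 and 0.0858), either Ctrl ZT16 library (0.196 and 0.245) or replicate 1 of cKOt ZT16 (0.515), when adjusted over all classes together (0.0554) and with DESeq2 (0.260).

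At ZT4 the same segments held values on the same side without a call in the main fit. Nampt was at 228.0 and 241.6 CPM in DCT1 of Ctrl against 144.5 and 164.7 CPM in cKOt (−0.60 ± 0.18, adjusted p = 0.332). In CNT it was at 201.3 and 204.9 CPM against 111.5 and 112.8 CPM (−0.86 ± 0.21, adjusted p = 0.0664). There edgeR gave an adjusted p = 0.0367 with a replicate block and 0.0494 without nuclei called doublets. Nampt was lower in cKOt in 20 of 20 classes at ZT16 and in 18 of 19 at ZT4. Its median change at ZT16 was −0.67 over the 14 tubular classes and −0.22 over the 5 vascular, interstitial, glomerular and myeloid classes. In PCT it was at 77.03 and 95.81 CPM in Ctrl and 48.00 and 49.58 CPM in cKOt at ZT16 (−0.82 ± 0.16, adjusted p = 0.111 with edgeR, 0.0339 with DESeq2). In the thin descending limb, where Nampt was highest, it was at 751.6 and 555.4 CPM against 276.1 and 394.3 CPM (−0.997 ± 0.26, adjusted p = 0.191).

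Wee1 was called in PCT/PST at ZT16, at 21.17 and 30.30 CPM in Ctrl and 10.90 and 9.830 CPM in cKOt (−1.30 ± 0.21, adjusted p = 0.0377). The ZT4 levels there were 13.44 and 12.73 CPM in Ctrl and 11.23 and 10.95 CPM in cKOt. Clusters differed between genotypes at ZT16, with clusters 23 and 24 holding 47.1% and 48.0% of the PCT/PST nuclei of Ctrl. Clusters 7 and 13 held 57.2% and 42.4% of those of cKOt. The call was lost without any of the 4 Ctrl libraries (adjusted p = 0.0575 to 0.188) or either cKOt ZT16 library (0.199 and 0.343), without cluster 13 (0.104), with a replicate block (0.0579), with 50 principal components in the clustering (0.0636) and when adjusted over all classes together (0.0856). In the summed proximal classes Wee1 was lower by −1.32 ± 0.21 (adjusted p = 0.0457, 0.446% of all genes called), which was lost without either Ctrl ZT4 library, replicate 2 of Ctrl ZT16 or either cKOt ZT16 library (0.0813 to 0.453) and with a replicate block (0.0672). In PCT it was at 16.48 and 26.81 CPM against 7.540 and 7.642 CPM (−1.49 ± 0.35, adjusted p = 0.207), and it was lower in 15 of 15 classes tested at ZT16.

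Lpin1 was called in PST at ZT16, at 136.4 and 130.5 CPM in Ctrl and 63.75 and 70.39 CPM in cKOt (−0.99 ± 0.17, adjusted p = 0.0403). It was lost without any of the 4 Ctrl libraries (adjusted p = 0.0572 to 0.245) or either cKOt ZT16 library (0.329 and 0.238), without nuclei called doublets (0.0592), with a replicate block (0.0527) and when adjusted over all classes together (0.0763). At ZT4 the same nuclei held 103.9 and 124.0 CPM in Ctrl and 108.9 and 101.7 CPM in cKOt, which overlapped. PCT had a larger change without a call, from 95.63 and 156.0 CPM to 51.62 and 54.02 CPM (−1.25 ± 0.26, adjusted p = 0.129 with edgeR, 0.00205 with DESeq2). Clusters differed between genotypes here too, with cluster 20 holding 89.7% of PST nuclei of Ctrl at ZT16 and cluster 12 holding 99.8% of those of cKOt. Nuclei called doublets made up 20.4% of cluster 12 and 8.42% of cluster 20. At ZT4 cluster 20 held 85.0% of PST nuclei of Ctrl and cluster 12 held 97.45% of those of cKOt, so the split also underlies the Por levels in PST. The part of this split and of the doublets in the results was not tested.

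**Figure D3:**
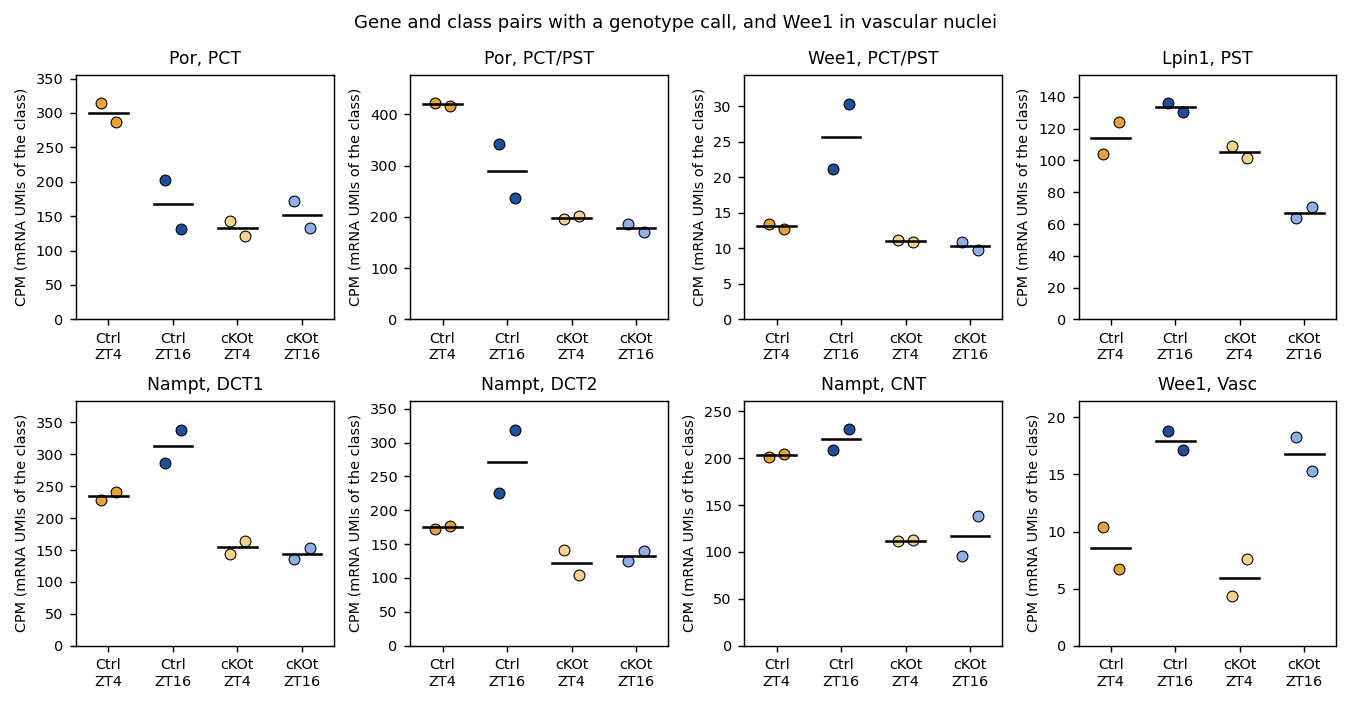
CPM in each of the 8 libraries for the 7 called pairs of gene and class and for Wee1 in Vasc, with 1 panel per pair, axes from 0 and lines for the mean of 2 mice. In the called pairs both cKOt points lie below both Ctrl points at the time of the call, and in Vasc Wee1 is higher at ZT16 than at ZT4 in both genotypes.

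The other members were not called in any class. The largest genotype differences of Klf15 and Klf10 lay in proximal classes, whereas those of Usp2 were in UT (−1.20 at ZT16) and thinDL (−1.14 at ZT4), that of Alas1 in thinDL (−1.21 at ZT16) and that of Klf9 in thinAL (−0.82 at ZT16). The last 3 genes had few counts in these classes. Alas1 in thinDL at ZT16 had 15 and 12 UMIs in Ctrl and 7 and 3 UMIs in cKOt. Over the Ctrl libraries Usp2 had 6 to 14 UMIs in UT and 12 to 19 in thinDL, and Klf9 had 28 to 73 in thinAL. Klf15 in PCT was at 36.61 and 44.68 CPM in Ctrl and 21.03 and 21.55 CPM in cKOt at ZT4 (−0.93 ± 0.23, adjusted p = 0.124), and in PST at 69.77 and 51.03 CPM against 38.09 and 31.14 CPM at ZT16 (−0.80 ± 0.26, adjusted p = 0.339). Klf10 in PCT/PST was at 27.94 and 28.95 CPM in Ctrl and 9.177 and 9.581 CPM in cKOt at ZT16 (−1.60 ± 0.54, adjusted p = 0.355 with edgeR, 0.0363 with DESeq2), while the 2 Ctrl ZT4 mice were at 36.77 and 7.836 CPM. In Vasc, where Klf10 was highest, it was at 59.05 and 36.06 CPM in Ctrl and 57.98 and 45.39 CPM in cKOt at ZT16, which overlapped.

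Usp2 was lower in cKOt at ZT16 in 17 of 20 classes, and 7 reached an unadjusted p under 0.05. In DCT1 it was at 212.5 and 206.9 CPM in Ctrl against 148.3 and 112.2 CPM in cKOt (−0.69 ± 0.24, adjusted p = 0.554). At ZT4 it was lower in 10 of 19 classes and no class reached an unadjusted p under 0.05. Klf9 was lower at ZT16 in 18 of 20 classes with a median of −0.21, and Alas1 in 16 of 18 with a median of −0.40, of which 1 and 0 reached an unadjusted p under 0.05. In PCT, Alas1 was at 150.1 and 94.66 CPM in Ctrl at ZT4 and 60.30 and 220.3 CPM at ZT16, and at 162.5, 29.60, 99.91 and 67.71 CPM in cKOt, and the groups overlapped.

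**Figure D4:**
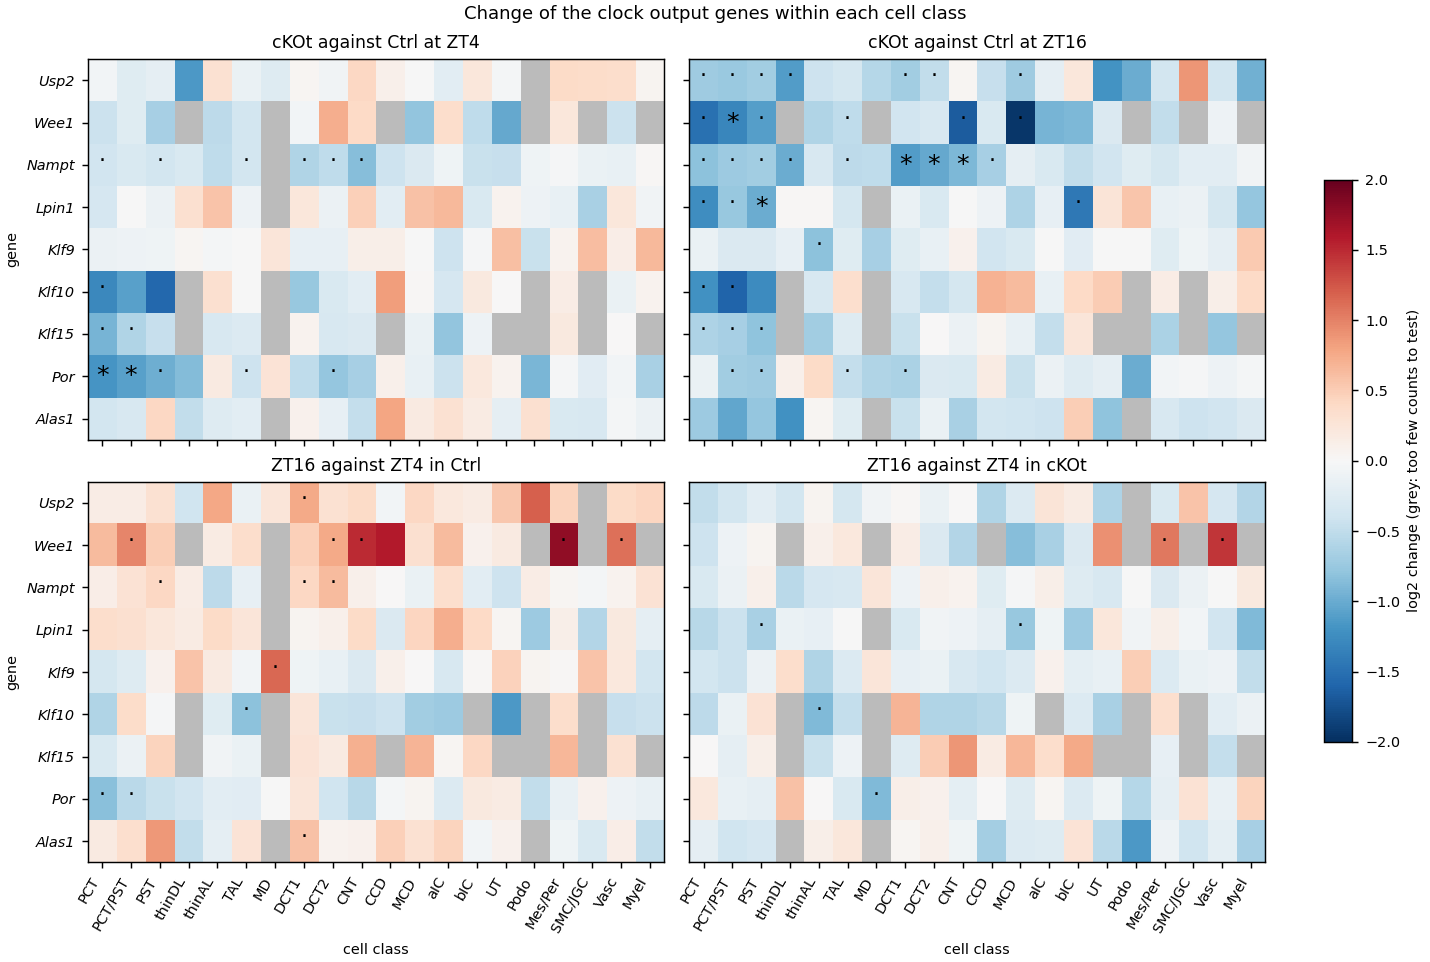
Heat maps of the log2 change of the 9 genes (rows) in the 20 classes (columns) for 4 contrasts, with stars for an adjusted p under 0.05, dots for an unadjusted p under 0.05 and grey where the pair was not tested. The 2 stars at ZT4 are Por in PCT and PCT/PST, and the 5 at ZT16 are Nampt in DCT1, DCT2 and CNT, Wee1 in PCT/PST and Lpin1 in PST.

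Since Cre was active in the tubule, the change between genotypes in tubular nuclei was compared with that in the other nuclei of the same mice (Vasc, Mes/Per, SMC/JGC, Podo and Myel), with library as a block. Por differed between these compartments at ZT4 by −0.84 ± 0.14 (adjusted p = 0.0393, 0.255% of all genes called). Tubular nuclei were at 292.0 and 257.7 CPM in Ctrl and 158.8 and 131.4 CPM in cKOt. The other nuclei were at 109.8 and 94.26 CPM in Ctrl and 94.81 and 96.23 CPM in cKOt, which overlapped. By class, Por was lower in cKOt in 10 of 14 tubular classes (median −0.47) and in 5 of 5 other classes (median −0.22). The call was lost without either Ctrl ZT4 library (adjusted p = 0.146 and 0.263), replicate 2 of cKOt ZT4 (0.173) or either cKOt ZT16 library (0.0631 and 0.0600), with the difference at −0.69 without replicate 2 of cKOt ZT4. At ZT16 none of the 9 was called (0.146% of all genes), and Por differed by −0.33 ± 0.14 (adjusted p = 0.710).

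At ZT16 the difference between compartments was −0.96 ± 0.48 for Klf10 (adjusted p = 0.783), with a wide error, and −0.64 ± 0.20 for Wee1 (adjusted p = 0.503). For Wee1, tubular nuclei were at 21.89 and 27.05 CPM in Ctrl and 13.81 and 11.84 CPM in cKOt, and the other nuclei at 15.49 and 14.71 CPM in Ctrl and 13.93 and 10.97 CPM in cKOt. Both compartments were thus lower in both cKOt libraries, the tubular one by more. The differences of Lpin1 (−0.48, adjusted p = 0.579) and Nampt (−0.44, adjusted p = 0.706) had the same sign, and those of Klf15 (0.16) and Klf9 (0.065) the opposite one.

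**Figure D5:**
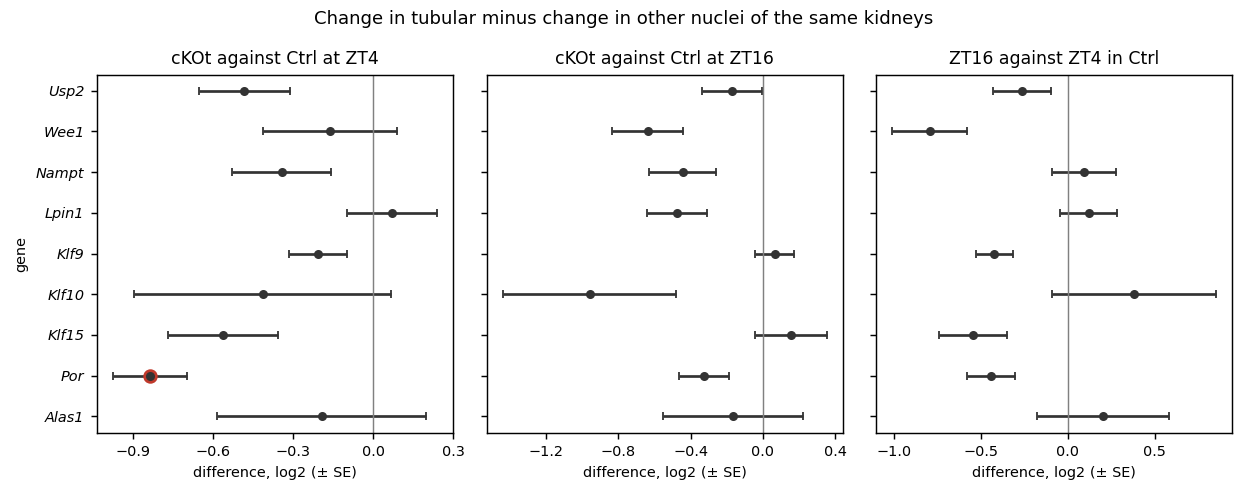
Difference in log2 change between tubular and other nuclei for the 9 genes in 3 contrasts, as points with bars of ± 1 SE from the edgeR fit over 16 sums of 8 libraries, and red rings for an adjusted p under 0.05. The ringed point is Por for cKOt against Ctrl at ZT4, at −0.84.

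Time of day in Ctrl gave no call among the 9 genes in any class, 0 of 158 pairs against 0.353% of all pairs with edgeR, and DESeq2 called 1 pair, Por in PCT (adjusted p = 0.0302). An unadjusted p under 0.05 was reached by 2 genes in the whole kidney, Por and Wee1 (9.95% of all genes), and by 14 pairs within classes, 3 lower and 11 higher at ZT16 (8.25% of all pairs). In the whole kidney 3 genes, Wee1, Lpin1 and Nampt, had both ZT16 libraries above both ZT4 libraries (20.0% of all genes), and the median over the 9 genes was 0.16 against −0.003 for all genes.

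Wee1 was higher at ZT16 in 15 of the 15 classes in which it was tested, with 5 at an unadjusted p under 0.05, while Usp2 was higher in 16 of 19 and Lpin1 in 15 of 19. The largest difference was in Mes/Per, from 5.264 and 3.746 CPM at ZT4 to 14.21 and 15.90 CPM at ZT16 (1.77 ± 0.39, adjusted p = 0.195), and in Vasc it was at 10.44 and 6.685 CPM (ZT4) against 18.78 and 17.10 CPM (ZT16) (1.11 ± 0.30, adjusted p = 0.152). Cre is not driven in either class in cKOt, and there too both ZT16 libraries were above both ZT4 libraries. In cKOt Wee1 was at 4.384 and 7.557 CPM (ZT4) against 18.29 and 15.34 CPM (ZT16) in Vasc (1.44 ± 0.32, adjusted p = 0.125), and at 6.937 and 3.474 CPM against 12.95 and 8.436 CPM in Mes/Per (1.055 ± 0.41, adjusted p = 0.375). In tubular nuclei of cKOt the levels were 14.31 and 12.37 CPM (ZT4) against 13.81 and 11.84 CPM (ZT16), which overlapped. In Ctrl the time change differed between compartments by −0.79 ± 0.22 without a call (adjusted p = 0.236, 0.191% of all genes called), being the smaller in tubular nuclei.

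Por was lower at ZT16 in PCT of Ctrl, at 202.2 and 131.9 CPM against 313.8 and 286.5 CPM at ZT4 (−0.84 ± 0.22, adjusted p = 0.156). In PCT of cKOt it was at 143.1 and 121.2 CPM (ZT4) against 171.3 and 132.8 CPM (ZT16). Nampt was higher at ZT16 in 13 of 19 classes in Ctrl and lower in 6, with both ZT16 libraries lower in thinAL (48.20 and 51.99 CPM, then 35.35 and 34.14 CPM). It was higher in DCT2, from 172.5 and 177.1 CPM to 224.8 and 318.1 CPM (0.63 ± 0.19, adjusted p = 0.155), and in PST, from 98.59 and 98.04 CPM to 125.0 and 136.9 CPM (0.41 ± 0.16, adjusted p = 0.615). Usp2 was higher in DCT1, from 152.9 and 97.28 CPM to 212.5 and 206.9 CPM (0.76 ± 0.24, adjusted p = 0.168, or 0.0343 with a replicate block).

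In cKOt the time points gave no call in the whole kidney, where edgeR called 0 of 16069 genes and DESeq2 164, nor with either tool in any of the 159 pairs (0.145% of all pairs). An unadjusted p under 0.05 was reached by Lpin1 in the whole kidney (8.32% of all genes) and by 6 pairs (7.06% of all pairs), 4 of them lower at ZT16. Lpin1 in PST of cKOt was at 108.9 and 101.7 CPM (ZT4) against 63.75 and 70.39 CPM (ZT16) (−0.65 ± 0.17, adjusted p = 0.865), on the other side from Ctrl, where it was at 103.9 and 124.0 CPM (ZT4) against 136.4 and 130.5 CPM (ZT16).

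The genotype by time interaction, which tests whether the time change differs between genotypes, was not called for any of the 9 genes in the whole kidney or in any of 163 pairs (0.0257% of all pairs). Lpin1 and Wee1 reached an unadjusted p under 0.05 in the whole kidney (4.35% of all genes), as did 9 pairs (4.24% of all pairs), 8 of them negative. For Lpin1 the interaction was −0.67 ± 0.20 in the whole kidney (adjusted p = 0.964) and −0.88 ± 0.24 in PST (adjusted p = 1.00), for Wee1 −0.58 ± 0.25 (adjusted p = 1) and −1.07 ± 0.31 in PCT/PST (adjusted p = 0.886), and for Por 0.39 ± 0.27 (adjusted p = 1) and 1.05 ± 0.31 in PCT (adjusted p = 0.795). Without single libraries the Por interaction in the whole kidney ranged from 0.19 to 0.63. The Wee1 interaction was negative in 12 of 12 tubular classes tested.

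The clock loop itself moved in the same sums in which the outputs were not called. Of 20 loop genes, 4 were higher and 3 lower at ZT16 than at ZT4 in Ctrl, 5 higher and 4 lower in cKOt at ZT4, 1 higher and 1 lower in cKOt at ZT16, 0 were called by time in cKOt (4 at an unadjusted p under 0.05), and 2 had a negative interaction. Npas2, the partner of BMAL1, was higher in cKOt by 3.97 at ZT4 (adjusted p = 5.9e-05) and by 1.88 at ZT16, and Nr1d2, which encodes REV-ERB beta, fell by 1.79 and 1.34. Of the loop genes, 11 of 20 were called in PCT and 8 of 20 in Vasc by time in Ctrl, and 11 of 19 and 2 of 20 in cKOt at ZT4, beside 0.353% and 0.315% of all pairs of gene and class in these contrasts. In PST the counts were 4 of 19 and 7 of 19, in TAL 11 of 20 and 10 of 19, and in Mes/Per 4 of 19 and 1 of 18.

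Of the genes that work beside the 9, edgeR called none in the whole kidney in any contrast, among other KLF factors (12 tested of 14), NAD synthesis and use (16 of 16), haem synthesis and breakdown (12 of 12), microsomal partners of Por (12 of 12), phosphatidate and triglyceride synthesis (12 of 12), glucocorticoid-responsive genes (12 of 12), and kinases, phosphatases and cyclins of mitotic entry (8 to 10 of 10). The list called microsomal partners of Por, here and below, also holds Cyp24a1 and Cyp27b1, which are mitochondrial P450s. Its counts are therefore not of microsomal partners alone. In a single contrast an unadjusted p under 0.05 was reached by at most 5 microsomal partners of Por (at ZT16), 4 glucocorticoid-responsive genes, 2 KLF factors, 2 genes of mitotic entry and 1 gene of each of the other lists, beside 4.35% to 9.95% of all genes over the 5 contrasts and 6.10% at ZT16. Other lists also had medians below that of all genes in cKOt at ZT16, −0.47 with 10 of 12 lower for the glucocorticoid-responsive genes, −0.24 with 8 of 12 lower for the microsomal partners of Por and −0.10 with 10 of 12 lower for phosphatidate and triglyceride synthesis, while NAD synthesis and use had 0.15 with 5 of 16 lower. At ZT4 the median of the glucocorticoid-responsive genes was −0.06 with 6 of 12 lower. Within PCT, PST, TAL, Vasc and Mes/Per the calls of these lists are named next for PCT, and were otherwise 1 of 10 microsomal partners, higher in TAL at ZT16 (0.194% of all pairs), glucocorticoid-responsive genes in TAL (of 12, 1 higher and 2 lower by time in Ctrl beside 0.353% of all pairs, 2 higher and 1 lower at ZT4 beside 0.315%, 1 lower by time in cKOt beside 0.145%), and 1 such gene higher by time in Vasc of cKOt. In PCT at ZT4, Klf13, another zinc-finger factor, was lower in cKOt by −1.20 ± 0.20 (adjusted p = 0.0243), and Cyp2e1, a P450 that takes electrons from POR, by −1.34 ± 0.22 (adjusted p = 0.0219). The glucocorticoid-responsive genes Zbtb16 (3.59 ± 0.57, adjusted p = 0.0233) and Tsc22d3, which encodes GILZ (1.37 ± 0.25, adjusted p = 0.0446), were higher at ZT16 in PCT of Ctrl, and Zbtb16 was also higher in cKOt at ZT4 (2.89, adjusted p = 0.0487).

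Several of the genes overlap others on the opposite strand, and the sources used here do not say whether the counting used strand, so that reads of such partners cannot be told apart from theirs without it. 1600010M07Rik at the Wee1 locus had 1750 to 3419 UMIs per library, more than Wee1 itself with 421 to 937, Tmem120a at Por had 790 to 1263, and Gm49380 at Usp2 had 259 to 489. In Ctrl and cKOt at ZT16 1600010M07Rik had 3419 and 1978 UMIs and 2633 and 2106 UMIs, which overlapped, unlike Wee1. Nuclei with adipocyte markers numbered 21 and 35 in the 2 cKOt ZT4 libraries and 0 to 4 elsewhere. They held 3.53% of the Klf10 UMIs, 2.66% of those of Lpin1 and 1.90% of those of Por in cKOt at ZT4, with 1 and 45 UMIs of Klf10 in the 2 libraries, and are outside all 20 classes.

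In GRCm38.p6, the build of the reference that the study's methods name (the labels list GRCm39), the genes lie at chr9:44067021-44095627 (Usp2, ENSMUSG00000032010), chr7:110122059-110143299 (Wee1, ENSMUSG00000031016), chr12:32820335-32853369 (Nampt, ENSMUSG00000020572), chr12:16535669-16653903 (Lpin1, ENSMUSG00000020593), chr19:23141226-23168129 (Klf9, ENSMUSG00000033863), chr15:38291464-38300711 (Klf10, ENSMUSG00000037465), chr6:90461043-90491803 (Klf15, ENSMUSG00000030087), chr5:135670040-135735326 (Por, ENSMUSG00000005514) and chr9:106233455-106247954 (Alas1, ENSMUSG00000032786). Nampt and Lpin1 share chromosome 12 without being neighbours, and Usp2 and Alas1 share chromosome 9.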

How the data were processed

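Single-nucleus libraries (10x 3′ v3.1) came from DAPI-sorted nuclei of central kidney sections. The authors deposited UMI counts per gene and barcode, made with Cell Ranger 7.1.0. The methods name the mm10-2020-A reference and the labels GRCm39, and intron and strand settings are not given in the sources used here. Barcodes were kept at 500 genes, 800 UMIs and 2% mitochondrial UMIs or better. Nuclei were clustered with Seurat 5.3.0 (2000 variable genes without the 9 genes, resolution 2.2) and named where at least 3 markers led a cluster. The PCT/PST class and the pool of the 3 proximal classes were set after the clusters were seen. Cluster 13 was placed in PCT/PST with 1 marker past 2-fold, short of that number. Nuclei called doublets (4.98% to 5.95%) stayed in, and leaving them out is an alternative.

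UMI counts of protein-coding genes were summed per library, or per library and class, and tested with edgeR 4.0.16 (R 4.3.3; quasi-likelihood, TMM, 1 model of 4 groups). P-values were adjusted by Benjamini-Hochberg within contrast and class, over genes that had 5 counts or more in each replicate of 1 of the groups compared. DESeq2 1.42.0 is an alternative. Replicates are separate mice, and differed by more than counting error (chi-square per degree of freedom 36.6 to 64.6). Libraries shared 18 to 43 barcodes per pair. The code was tested on simulated data. The 9 genes and the lists were chosen with earlier results of these data known. Named genes are all 9, the called list genes of smallest p (2 per direction, in PCT where none was called in the whole kidney), and the 2 genes most like each member. Some genes that this rule names are not reported here.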

Additional observations from a re-analysis of the deposited data

Results flagged for a closer look

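For Por the change in cKOt at ZT4 differed between tubular and other nuclei by −0.84 on the log2 scale, and the test of that difference passed its threshold. For Nampt and Lpin1 every Ctrl library was higher at ZT16 than at ZT4 in the whole kidney, and every cKOt library was lower. The interaction that tests this difference was −0.27 for Nampt (adjusted p = 1) and −0.67 for Lpin1 (adjusted p = 0.964) with edgeR, so neither passed. Without single libraries it ranged from −0.38 to −0.16 for Nampt and from −0.846 to −0.485 for Lpin1. No group had more than 2 mice, so none was large enough to be screened for a sample far from the others.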

How the results depend on the processing

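Each group had 2 mice, so a call rests on the spread pooled over 8 libraries, and every call within a class was lost without at least 3 single libraries. In the whole kidney DESeq2 gave 1 call at ZT4 and 3 at ZT16 against none with edgeR, and the replicate block gave 1 at ZT4, that of Por. Over all genes DESeq2 called 233, 349, 171, 164 and 48 in the 5 contrasts, against 23, 72, 28, 0 and 3 with edgeR. For pairs of gene and class, the counts were 1 with DESeq2 and 1 with the replicate block for time in Ctrl (0 to 1 without single libraries), 0 when adjusted over all classes together and 1 without cluster 13 at ZT4 (0 to 2 without single libraries), and 8 with DESeq2, 3 with the replicate block and 2 when adjusted over all classes together at ZT16 (0 to 8 without single libraries). At ZT4 the replicate block and leaving out doublets also called Nampt in CNT (adjusted p = 0.0367 and 0.0494 with edgeR). The share of all pairs called with DESeq2 is not given here. The Por call between compartments at ZT4 held without some single libraries and was lost without others. The cause was not tested.

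The labels number the replicates alike in each group and do not say that a number marks a litter, batch or day. Over 9822 genes the deviations of same-numbered mice correlated at 0.522 between the genotypes at ZT4 and at 0.501 at ZT16, but at −0.254 between times in Ctrl and 0.230 in cKOt, and at −0.306 and 0.029 across both. With 2 mice per group this does not settle whether the numbers pair the mice, and the fit without the block was kept. The block shifts all mice of a number alike over both times, and a block within each time was not fitted. The replicate block changed the number of the 9 genes called in the whole kidney only at ZT4. Over all genes it called 15, 53, 30, 2 and 0.

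Changes of sign with other settings than leaving out a library were Klf9 at ZT4 with all nuclear genes (0.00997), the Klf10 interaction without adipocyte nuclei (0.00125), and with the replicate block Klf15 by time in Ctrl (−0.015) and its interaction (0.000139). Without single libraries, the ranges that crossed 0 were, for Alas1, −0.51 to 0.70 (time in Ctrl), −0.94 to 1.14 (time in cKOt), −1.47 to 0.61 (ZT4), −1.03 to 0.18 (ZT16) and −1.16 to 0.93 (interaction). For Klf9 they were −0.57 to 0.10, −0.61 to 0.083, −0.41 to 0.30, −0.42 to 0.24 and −0.42 to 0.28 in the same order. For Klf10 they were −0.64 to 0.27, −0.56 to 0.046 and −0.78 to 0.13 (ZT4), and −0.57 to 0.35 (interaction). For Klf15 they were −0.18 to 0.18, −0.29 to 0.30 and −0.30 to 0.30 (interaction). For time in cKOt, Por ranged from −0.29 to 0.053, Usp2 from −0.61 to 0.077 and Wee1 from −0.059 to 0.23. At ZT4, Usp2 ranged from −0.33 to 0.19 and Lpin1 from −0.0013 to 0.14. The recomputed values were tallied for every member in the whole kidney. For classes, the summed proximal classes and the compartments, only results called in the main fit were included. Of these values, 693 kept their direction and side of the threshold, 64 were no longer past it, 5 newly passed it and 45 changed sign. Pairs of gene and class not called in the main fit were left out, though other settings called some of them. Among these were Lpin1 in PCT at ZT16 with DESeq2 and Nampt in CNT at ZT4 with the replicate block.

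The alternatives without cluster 13, without adipocyte nuclei, and without doublets between compartments were chosen after seeing the data. Allowing the 9 genes among the variable genes gave the same clusters, since none was among the 2000. Wee1, Klf10 and Klf15 had at most 937, 987 and 1668 UMIs per library, which limits what can be seen in small classes.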

Other observations

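Among the 2 genes most like a member over the 8 whole-kidney libraries (Pearson r of log2(CPM + 1), 9821 genes with a mean of at least 10 CPM) were Myo1c (0.971) for Usp2, Chdh (0.968) and Mfsd2a (0.961) for Wee1, Kif1b (0.959) and Slc25a48 (0.953) for Nampt, Neurl1b (0.967) for Lpin1, Pias3 (0.985) for Klf10, Atxn7l2 (0.965) for Klf15, Ubxn6 (0.971) and Klf13 (0.941) for Por, and Actn1 (0.962) for Alas1. The 8 points fall into 4 groups of 2 mice, and the values are given as a description.

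Over the mean Ctrl levels of the 20 classes the 2 likest genes included Dlec1 (0.907) and the transferrin receptor gene Tfrc (0.899) for Usp2, Qtrt1 (0.873) for Wee1, Scg5 (0.711) for Nampt, Ntn1 (0.921) for Lpin1, Nhs (0.762) for Klf9, Cenpj (0.794) for Klf10, Urgcp (0.843) for Klf15, and Selenbp1 (0.924) for Alas1. Nampt had the lowest value among those given here, and its level was led by the thin descending limb. The classes share the same 4 libraries.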
